A study of Mus musculus with 88 samples.

Results

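Ribosome biogenesis genes encode the nucleolar proteins that modify, cut and fold ribosomal RNA and build it into ribosomal subunits. The set described here holds 43 genes of 55364 in the tables. It was chosen by symbol from a list of nucleolar and pre-rRNA processing factors, and all 43 passed the filter on low values in both tables. Total RNA was measured in mouse embryonic stem cells (ES cells, 19 libraries) and in late 2-cell embryos (6 libraries). The ES cells were male, wild type and of a hybrid C57BL/6 / 129 background, were grown with LIF and the inhibitors PD0325901 and CHIR99021, and were transfected with a plasmid for Obox3 (ES_Obox3), Obox5 (ES_Obox5), Obox6 (ES_Obox6) or Dux (ES_Dux), or with an empty one (ES_Empty), 2 libraries each. A further 9 plasmids gave 1 ES cell library each. Wild-type embryos of the BDF1 strain were clones made by somatic cell nuclear transfer (SCNT), the placing of a cumulus cell nucleus in an enucleated oocyte, and received Obox3 mRNA (SCNT_Obox3_L2C) or EGFP mRNA (SCNT_EGFP_L2C) at 10 ng/µl. The fertilised embryos were BDF1 x BDF1 and came from sperm injection without mRNA (ICSI_L2C), again with 2 libraries in each group. The comparisons asked what the homeobox proteins Obox3, Obox5, Obox6 and Dux change in ES cells, and whether Obox3 mRNA moves cloned embryos towards fertilised ones. The labels do not name the promoter of the plasmids used for RNA, the share of cells that took them up, or the number of embryos in a library.

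Ribosome assembly starts in the nucleolus, where RNA polymerase I makes a long precursor RNA. Small nucleolar ribonucleoproteins modify that precursor: box C/D particles, built on Fbl, Nop56 and Nop58, methylate riboses, and box H/ACA particles, built on Dkc1, Nhp2, Nop10 and Gar1, make pseudouridine. The small subunit processome then cuts and folds the precursor of the small subunit, and separate factors assemble the large subunit and carry both to the cytoplasm. Early mouse embryos inherit ribosomes from the oocyte and form active nucleoli as their own genome is switched on. The 43 genes were put in 6 roles: 3 box C/D proteins, 4 box H/ACA proteins, 4 other nucleolar proteins, 16 processome proteins, 5 factors of late small subunit maturation and 11 large subunit factors.

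The promoters of 4 of the genes are shown because of their calls below: Nolc1 and Imp3 had the largest log2 fold changes in ES_Obox3 against ES_Empty, Imp3 and Nop2 were the 2 genes called in SCNT_Obox3_L2C against SCNT_EGFP_L2C, and Wdr43 had the largest in ES_Obox3 against ES_Dux. Each is the RefSeq sequence of GRCm38.p6 from 250 bases before to 50 bases after the annotated start, written 5′ to 3′ on the strand of the gene. Imp3 lies at chr9:56937250-56937549, plus strand, Nolc1 at chr19:46075597-46075896, plus strand, Wdr43 at chr17:71615965-71616264, plus strand and Nop2 at chr6:125131633-125131932, plus strand. Capitals mark the E-box CACGTG, the letters bound by Myc and related factors, which reads the same on both strands. The second motif searched was GGATTA, or TAATCC on the other strand, the letters bound by Crx-type homeodomains; it does not overlap the E-box and is in none of the 4.
Imp3: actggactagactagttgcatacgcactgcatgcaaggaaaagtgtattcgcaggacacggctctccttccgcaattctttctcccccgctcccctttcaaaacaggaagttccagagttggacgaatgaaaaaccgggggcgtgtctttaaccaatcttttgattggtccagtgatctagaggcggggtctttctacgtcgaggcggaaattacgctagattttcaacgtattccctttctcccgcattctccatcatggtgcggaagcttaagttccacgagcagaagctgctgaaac
Nolc1: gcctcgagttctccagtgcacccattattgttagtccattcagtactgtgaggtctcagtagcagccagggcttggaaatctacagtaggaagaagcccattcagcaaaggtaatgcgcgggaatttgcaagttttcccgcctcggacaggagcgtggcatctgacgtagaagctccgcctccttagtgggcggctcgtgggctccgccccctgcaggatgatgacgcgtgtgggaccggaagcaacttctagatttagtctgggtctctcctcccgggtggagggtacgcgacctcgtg
Wdr43: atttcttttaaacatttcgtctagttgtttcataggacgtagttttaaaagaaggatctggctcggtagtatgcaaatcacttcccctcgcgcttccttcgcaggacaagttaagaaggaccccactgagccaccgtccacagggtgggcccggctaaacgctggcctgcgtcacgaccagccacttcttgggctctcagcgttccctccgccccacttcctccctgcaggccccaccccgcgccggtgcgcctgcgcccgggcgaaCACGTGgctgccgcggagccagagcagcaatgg
Nop2: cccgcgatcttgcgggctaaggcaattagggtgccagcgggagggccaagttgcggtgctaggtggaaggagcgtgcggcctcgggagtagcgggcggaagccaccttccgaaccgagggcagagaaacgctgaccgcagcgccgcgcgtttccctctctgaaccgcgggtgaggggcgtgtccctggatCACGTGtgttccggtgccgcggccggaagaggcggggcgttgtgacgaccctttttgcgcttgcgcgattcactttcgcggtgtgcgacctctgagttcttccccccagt
Imp3 and Nolc1 had neither motif in this window. Wdr43 had its E-box 17 bases after the start and Nop2 had it at position -60 relative to the start. Of the 43 genes 35 had a promoter in the RefSeq table, 37 sequences in all. An E-box was in 10 of the 35 genes (28.6%), namely Imp4, Ltv1, Nle1, Nop2, Pes1, Tsr1, Utp18, Utp20, Utp4 and Wdr43. It was in 7.15% of all 32851 promoters and in 10.1% of the 12824 promoters of genes tested in ES cells. GGATTA or its complement was in 4 of the 35 genes (11.4%), Nop10, Nop14, Tsr1 and Utp3, against 7.06% of all promoters and 6.24% of those of genes tested in ES cells. The shares of the 35 count genes with a match in any promoter, while the other shares count promoter sequences, so the units differ. A match of letters is not evidence of binding, and these shares were not tested.

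Levels are given in scaled TPM, where TPM is the authors' length-normalised expression unit and each library of a table was divided by a factor that brings its median gene to a common level. The scaling was needed because the 10 most abundant genes took 48.9 to 73.8% of the TPM in ES cell libraries and 57.4 to 72.6% in embryo libraries. Size factors were 0.434 and 0.461 in ES_Dux, 0.937 and 0.646 in ES_Obox3, and 1.31 and 1.13 in ES_Empty. Absolute amounts per cell cannot be read from TPM on either scale, and in bulk RNA fewer cells of a type and less RNA per cell cannot be told apart. Per TPM, a transcript of 1 kb had an estimated 2.27 to 7.37 reads behind it in ES cells and 5.06 to 13.9 in embryos, and the group means of the 43 genes were above 4 scaled TPM in every replicated group, except for Wdr12 in SCNT_EGFP_L2C and ICSI_L2C. The expressed factors were found where the labels put them: Obox5 had 971 and 933 TPM in ES_Obox5, Obox6 had 2030 and 1960 in ES_Obox6 and Dux (as Duxf3) had 1550 and 1980 in ES_Dux, against 0 to 0.342 in ES_Empty. Obox3 under its own symbol had 1.75 and 1.59 TPM in ES_Obox3, against 0 in both ES_Empty libraries, and 6.74 and 5.02 in SCNT_Obox3_L2C, 0.47 and 3.22 in SCNT_EGFP_L2C and 78.7 and 64.6 in ICSI_L2C. A related gene of the tables, Obox3-ps5, had 451 and 263 TPM in ES_Obox3, against 0 in both ES_Empty libraries, and 56.8 and 62.4 in SCNT_Obox3_L2C, 1.19 and 6.87 in SCNT_EGFP_L2C and 118 and 99.5 in ICSI_L2C. Whether reads of Obox3 were counted on Obox3-ps5 was not tested. All 8 ES cell markers reached 1 TPM in both libraries of every replicated ES group, and their summed scaled TPM was 1340 and 1500 in ES_Obox3, 1430 and 1510 in ES_Obox5, 1480 and 1490 in ES_Obox6, 2050 and 2070 in ES_Dux and 1800 and 1790 in ES_Empty. Sox2 had 15.4 and 15.2 scaled TPM in ES_Obox3, 14.1 and 14.2 in ES_Obox5, 13.7 and 9.84 in ES_Obox6, 21.0 and 25.1 in ES_Dux and 59.8 and 58.7 in ES_Empty. Zfp42 had 63.8 and 66.8 scaled TPM in ES_Obox3, 67.0 and 79.4 in ES_Obox5, 88.6 and 73.7 in ES_Obox6, 82.7 and 85.8 in ES_Dux and 171 and 175 in ES_Empty. Both markers were lower in every library of the other 4 groups than in ES_Empty, as were Nanog, Esrrb and Klf4. The remaining ES cell markers did not all follow. In ES_Dux Pou5f1 had 441 and 436 scaled TPM, against 292 and 295 in ES_Empty, and Dppa5a had 1260 and 1280, against 867 and 858. In ES_Obox5 Tfcp2l1 had 93.6 and 92.2, against 90.3 and 87.3. The part of these markers in the results below was not tested. The summed scaled TPM of 8 late 2-cell markers was 9200 and 10200 in ES_Dux, 11.6 and 13.7 in ES_Obox3, 13.6 and 15.4 in ES_Obox5, 6.25 and 7.67 in ES_Obox6 and 1.77 and 0.516 in ES_Empty. In embryos it was 187 and 265 in SCNT_Obox3_L2C, 135 and 165 in SCNT_EGFP_L2C and 591 and 365 in ICSI_L2C, and of these 8 markers 6 reached 1 TPM in both libraries of SCNT_Obox3_L2C, 4 in SCNT_EGFP_L2C and 8 in ICSI_L2C. Markers of cumulus cells summed to between 0.776 and 2.69 in the embryo libraries, with Ptx3 at 0 in every embryo group. A gene was called where limma gave a Benjamini-Hochberg adjusted p under 0.05 over all genes tested and the log2 fold change was 1 or more in size on the log2(scaled TPM + 1) scale. Folds below are taken from that log2 fold change, so the added 1 brings those of low genes nearer to 1 than the ratio of their levels.

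The genes were among the more abundant transcripts. In ES_Empty their median level was 31.0 scaled TPM, at a median percentile of 87.9 among genes at 1 TPM or more, and in ICSI_L2C it was 39.7 at percentile 85.7. Npm1, a nucleolar chaperone that also binds histones, led in ES_Empty with 539 and 447 scaled TPM, followed by Ncl (nucleolin) with 317 and 274 and the box H/ACA protein Nhp2 with 188 and 153. The lowest were Nle1, a large subunit assembly factor, with 5.73 and 6.52, and Imp4, a partner of Imp3 in the U3 particle of the processome, with 6.84 and 6.58, and these neighbours lay close together without overlap. Npm1, Ncl and Nhp2 held the same order by their means in all 14 ES cell conditions. In ICSI_L2C the order differed at the top: Nolc1, a chaperone of small nucleolar ribonucleoproteins, led with 341 and 322, above Npm1 with 300.5 and 296 and the processome protein Utp3 with 183 and 189. Wdr12, a large subunit factor, was lowest there with 2.79 and 3.15. As a description over the 43 genes, percentiles in ES_Empty and ICSI_L2C had a Spearman rho of 0.73. Wdr12 was at percentile 26.6 in ICSI_L2C and 63.1 in ES_Empty, and no test was made between tables that were normalised separately.

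Expression of Obox3 in ES cells was accompanied by higher levels of a minority of the genes. Of the 43, 7 were called higher and 0 lower in ES_Obox3 against ES_Empty (16.3% and 0%), where 8.19% and 4.11% of all 20355 genes tested were called higher and lower. At an unadjusted p under 0.05 the counts were 23 higher and 2 lower, against 19.7% and 15.8% of all genes. The median of the 43 log2 fold changes was 0.30, against 0.01 for all genes tested. On the TPM as deposited, without scaling, 0 of the 43 were called higher and 1 lower (Ltv1, -1.07), against 4.67% and 13.6% of all genes, and the median was -0.34 against -0.42 for all genes. The increases are therefore increases relative to the median gene of a library.

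Nolc1, which shuttles small nucleolar ribonucleoproteins into the nucleolus, had 245 and 276 scaled TPM in ES_Obox3, against 99.4 and 86.7 in ES_Empty. Both ES_Obox3 libraries lay far above both ES_Empty libraries, a 2.78-fold difference (log2 fold change 1.48, SE 0.11, adjusted p = 0.000109, limma). Imp3, which joins U3 RNA to the precursor, had 51.1 and 41.4 scaled TPM in ES_Obox3, against 15.5 and 17.1 in ES_Empty. The groups did not overlap and differed 2.72-fold (log2 fold change 1.44, SE 0.26, adjusted p = 0.00678). Nle1 had 16.6 and 18.1 scaled TPM in ES_Obox3, against 5.73 and 6.52 in ES_Empty, a 2.58-fold rise of a gene that was the lowest of the 43 in ES_Empty (log2 fold change 1.37, SE 0.11, adjusted p = 0.000178). Utp14a, a processome protein with a retrocopy elsewhere in the genome (Utp14b), had 39.2 and 40.7 scaled TPM in ES_Obox3, against 18.1 and 18.2 in ES_Empty. Its libraries were close within each group and apart between them (log2 fold change 1.10, SE 0.0749, adjusted p = 8.89e-05). Rrp12, an export factor of the subunits, had 50.4 and 57.3 scaled TPM in ES_Obox3, against 24.2 and 25.9 in ES_Empty (log2 fold change 1.07, SE 0.0873, adjusted p = 0.000179). Utp4 and Wdr43 belong to the processome module that binds the nascent precursor first. Utp4 had 55.0 and 52.5 scaled TPM in ES_Obox3, against 27.2 and 23.9 in ES_Empty (log2 fold change 1.05, SE 0.19, adjusted p = 0.00671), and Wdr43 had 128 and 129 scaled TPM in ES_Obox3, against 66.3 and 60.6 in ES_Empty (log2 fold change 1.01, SE 0.0927, adjusted p = 0.000301). As deposited, the log2 fold changes of these 7 genes stayed above 0, from 0.37 for Wdr43 to 0.84 for Nolc1, and none was called. Utp4 and Wdr43 were not called without library 2 of ES_Empty (0.96 and 0.95), and Rrp12 was not called without the unnumbered ES_Obox3 library (0.99).

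**Figure D1:**
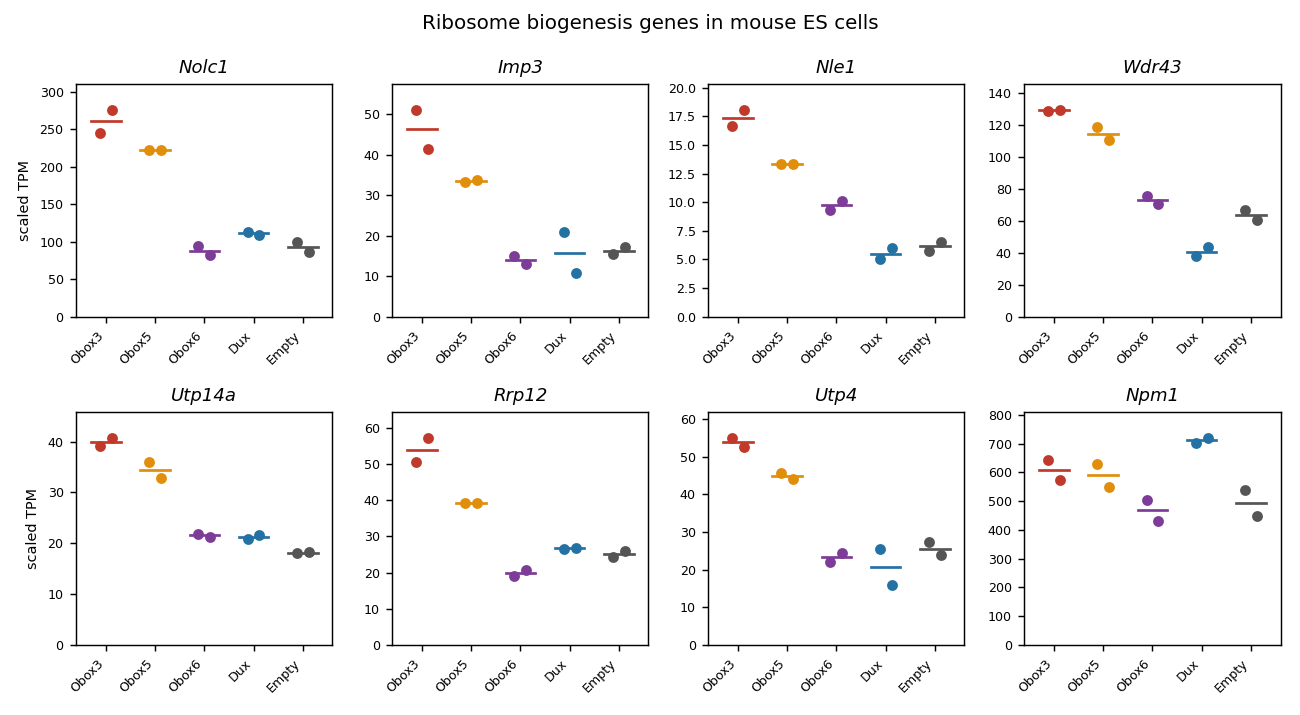
Levels of 8 ribosome biogenesis genes in ES cells in scaled TPM (y axis, from 0) by plasmid (x axis); points are the 2 libraries of a group and lines their mean. Nolc1, Imp3, Nle1, Wdr43, Utp14a, Rrp12 and Utp4 were highest in ES_Obox3, next in ES_Obox5, and Npm1 was highest in ES_Dux with 702 and 720.0 scaled TPM.

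The core enzymes of RNA modification did not pass the threshold. Fbl, the methyltransferase of box C/D particles, came nearest, with 42.1 and 43.4 scaled TPM in ES_Obox3, against 29.0 and 26.6 in ES_Empty, and its adjusted p was under 0.05 at a log2 fold change of 0.60 (adjusted p = 0.00249, limma), or -0.02 as deposited. Its partner Nop56 had 112 and 115 scaled TPM in ES_Obox3, against 98 and 98.1 in ES_Empty (log2 fold change 0.21, SE 0.12, adjusted p = 0.258). Dkc1, the pseudouridine synthase of box H/ACA particles, averaged 50.6 ± 0.197 scaled TPM in ES_Obox3 and 49.7 ± 6.86 in ES_Empty (SD, n = 2 each), and Nop10, which holds it in shape, averaged 23.8 ± 5.51 scaled TPM in ES_Obox3 and 25.1 ± 5.41 in ES_Empty (SD, n = 2 each). The values of both overlapped between groups, as did those of Ncl and Bop1 (log2 fold changes -0.09 and 0.18). Nob1, the nuclease that makes the final cut of small subunit RNA, had 25.4 and 25.4 scaled TPM in ES_Obox3, against 17.2 and 17.6 in ES_Empty, without overlap (log2 fold change 0.52, SE 0.0907, adjusted p = 0.00576), and was at -0.10 as deposited. Pes1, the partner of Bop1, was at 0.30 on the log2 scale (adjusted p = 0.0388), Heatr1, a processome scaffold, 0.27 (adjusted p = 0.0642) and Npm1 0.31 (adjusted p = 0.148). By role the median log2 fold change was 0.63 for late small subunit factors, 0.35 for box C/D proteins, 0.34 for other nucleolar proteins, 0.30 for large subunit factors, 0.25 for the processome and -0.02 for box H/ACA proteins. The late maturation factor Bysl had 41.3 and 39.5 scaled TPM in ES_Obox3, against 24.9 and 22.2 in ES_Empty. Tsr1 had 50.8 and 49.7 scaled TPM in ES_Obox3, against 32.5 and 31.6 in ES_Empty, while Ltv1 of the same role had 26.0 and 20.0 scaled TPM in ES_Obox3, against 35.5 and 28.1 in ES_Empty with both ES_Obox3 libraries lower. Members of a role thus did not move as 1 block.

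Other genes of the pathway gave 5 called higher and 1 lower of 95 tested (97 listed), 5.26% and 1.05%; as deposited the counts were 1 and 7. The 2 with the largest changes were Myc, the transcription factor known as a driver of ribosome production, and Znhit3, an assembly factor of box C/D particles. Myc had 2.12 and 2.17 scaled TPM in ES_Obox3, against 11.4 and 13.6 in ES_Empty, a drop in both libraries (log2 fold change -2.10, adjusted p = 0.000411). Znhit3 had 67.3 and 81.2 scaled TPM in ES_Obox3, against 16.8 and 22.5 in ES_Empty (log2 fold change 1.87, adjusted p = 0.000319) and was the gene of these lists still called higher as deposited. Mycn did not pass the fold threshold (log2 fold change -0.76, adjusted p = 0.0176). Polr1a and Polr1b, the large subunits of RNA polymerase I, had log2 fold changes of 0.03 and 0.81, and Ubtf, its DNA-binding partner, 0.45; none of the 3 was called.

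With Obox5 Nolc1 and Nle1 were called higher, and the share of the 43 genes called was not above that of all genes. In ES_Obox5 against ES_Empty 2 of the 43 (4.65%) were called higher and 0 lower, where 6.48% and 2.5% of all genes were. At an unadjusted p under 0.05, 17 of the 43 were higher and 2 of the 43 lower, against 17.2% and 13% of all genes. The median of the 43 was 0.17, against 0.02 for all genes. Nolc1 had 222 and 222 scaled TPM in ES_Obox5, against 99.4 and 86.7 in ES_Empty. The 2 ES_Obox5 libraries were nearly equal and stood above both controls (log2 fold change 1.25, SE 0.11, adjusted p = 0.000316, limma). Nle1 had 13.3 and 13.3 scaled TPM in ES_Obox5, against 5.73 and 6.52 in ES_Empty, again without overlap (log2 fold change 1.01, SE 0.11, adjusted p = 0.000982). As deposited neither was called (0.92 and 0.72) and 0 of the 43 were, against 4.79% higher and 5.47% lower of all genes. Without library 1 of ES_Empty Nle1 was not called (0.93), which leaves 1 called gene. Wdr43 had 118 and 110.3 and Imp3 33.3 and 33.6 scaled TPM in ES_Obox5, both between the levels of ES_Obox3 and ES_Empty given above, at log2 fold changes of 0.84 and 1.00 (adjusted p = 0.00101 and 0.0386), which for Imp3 is just under the fold threshold. These 2 were described after their values were seen. Among the fixed representatives Nob1 had a log2 fold change of 0.37 and Fbl 0.31 (adjusted p = 0.0293 and 0.0484). Npm1 (0.26), Pes1 (0.22), Nop56 (0.15), Bop1 (0.13), Heatr1 (0.04), Dkc1 (0.01), Ncl (-0.05) and Nop10 (-0.27) had adjusted p of 0.05 or more. Of 95 other pathway genes 4 were called higher and 2 lower, and as deposited 0 and 2. The lower ones were Myc, with 2.13 and 3.44 scaled TPM in ES_Obox5, against 11.4 and 13.6 in ES_Empty (log2 fold change -1.86, adjusted p = 0.00103), and Mycn, with 10.2 and 12.1 scaled TPM in ES_Obox5, against 32.8 and 24.6 in ES_Empty (log2 fold change -1.28, adjusted p = 0.00239). Polr1a (-0.03), Polr1b (0.43) and Ubtf (0.33) were not called. ES_Obox3 and ES_Obox5 were set against the same 2 ES_Empty libraries, so the comparisons share their controls.

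Obox6 gave no called gene of the 43. In ES_Obox6 against ES_Empty the counts were 0 higher and 0 lower by limma, where 3.37% and 1.21% of all genes were called, and at an unadjusted p under 0.05 they were 2 and 13, against 14% and 9.03% of all genes. The median was -0.19, against 0.06 for all genes. As deposited the counts were 0 and 0 too, where 2.39% and 1.99% of all genes were called. Fbl had 19.4 and 19.9 scaled TPM in ES_Obox6, against 29.0 and 26.6 in ES_Empty, with both ES_Obox6 libraries below both controls (log2 fold change -0.48, SE 0.0876, adjusted p = 0.0164). Log2 fold changes of the other representatives were -0.40 for Bop1, -0.33 for Heatr1, -0.31 for Ncl, -0.30 for Nop10, -0.19 for Nob1, -0.07 for Npm1, -0.07 for Pes1, -0.06 for Dkc1 and 0.14 for Nop56. Each of these had an adjusted p above 0.05. Of the other pathway genes 0 of 95 were called higher and 2 lower on either scale, Mycn with 8.41 and 10.8 scaled TPM in ES_Obox6, against 32.8 and 24.6 in ES_Empty (log2 fold change -1.48, adjusted p = 0.00266) and Myc with 5.27 and 4.76 scaled TPM in ES_Obox6, against 11.4 and 13.6 in ES_Empty (log2 fold change -1.17, adjusted p = 0.0142). Polr1a (0.01), Polr1b (-0.21) and Ubtf (0.23) were not called.

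A direct comparison of ES_Obox3 with ES_Obox6 was added after the data were seen. It called 5 of the 43 genes higher and 0 lower, where 4.51% and 3.44% of all genes were, with 29 and 0 at an unadjusted p under 0.05 (16.1% and 16% of all genes), and the median was 0.45 against -0.04 for all genes. Rrp12 had 50.4 and 57.3 scaled TPM in ES_Obox3, against 18.9 and 20.6 in ES_Obox6, Nolc1 had 245 and 276 against 93.6 and 81.8, and Imp3 had 51.1 and 41.4 against 15.0 and 12.9. In each the ES_Obox3 libraries were above both ES_Obox6 libraries (log2 fold changes 1.40, 1.56 and 1.65, adjusted p = 0.00016, 0.000226 and 0.00577, limma). These 3 were called as deposited too, where 2.52% of all genes were called higher and 6.61% lower. Fbl, with 42.1 and 43.4 scaled TPM in ES_Obox3, against 19.4 and 19.9 in ES_Obox6 (log2 fold change 1.08, SE 0.0876, adjusted p = 0.000402), and Utp4, with 55.0 and 52.5 scaled TPM in ES_Obox3, against 22.1 and 24.4 in ES_Obox6 (log2 fold change 1.17, SE 0.19, adjusted p = 0.00624), were called on the scaled values only, at 0.70 and 0.79 as deposited. Among the other representatives Nob1 (0.71), Heatr1 (0.60), Bop1 (0.58) and Pes1 (0.36) had adjusted p under 0.05 without passing the fold threshold. Npm1 (0.38), Nop10 (0.22), Ncl (0.22), Dkc1 (0.09) and Nop56 (0.07) did not reach that p. Of 95 other pathway genes 6 were called higher and 0 lower (as deposited 1 and 2), led by Znhit3 (1.98) and Taf1b, a selectivity factor of RNA polymerase I (1.09). Polr1b was called too, with 30.1 and 28.9 scaled TPM in ES_Obox3, against 13.2 and 15.1 in ES_Obox6 (log2 fold change 1.01, adjusted p = 0.00297), while Polr1a (0.02), Ubtf (0.22), Myc (-0.94) and Mycn (0.73) were not.

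**Figure D2:**
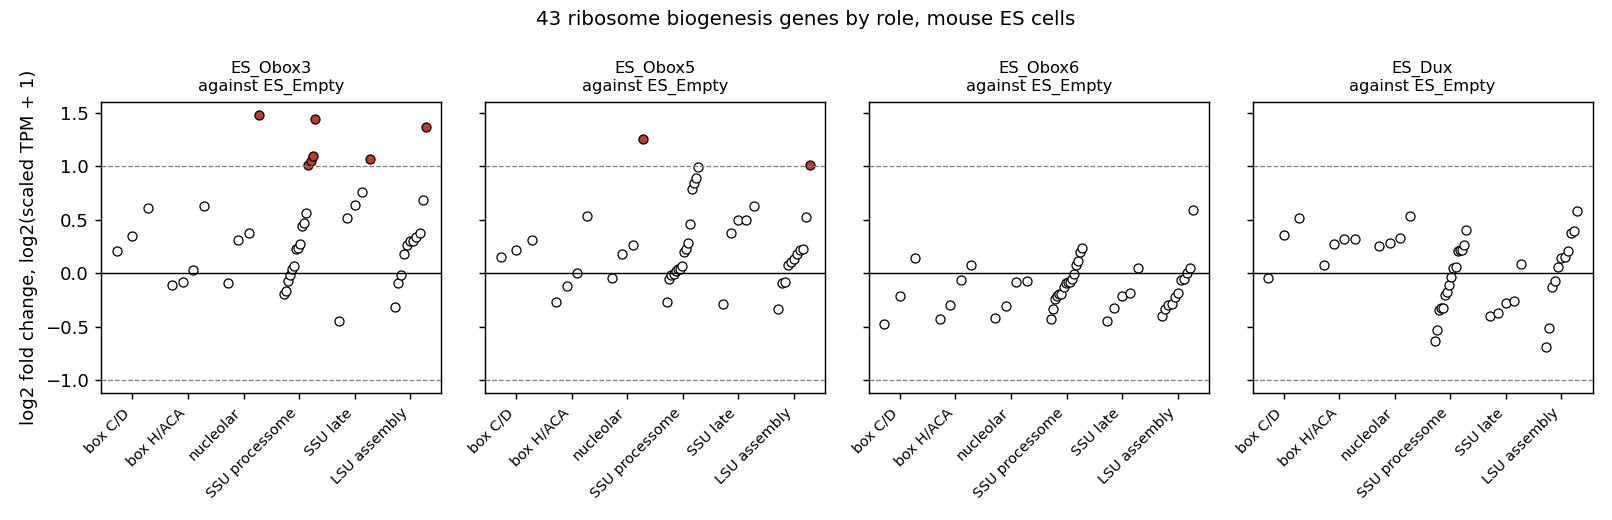
Log2 fold changes of the 43 genes (y axis, on the log2(scaled TPM + 1) scale) by role (x axis; SSU, small subunit; LSU, large subunit) for 4 plasmids against ES_Empty; each point is a gene, red points were called higher and dashed lines mark 1 and -1. The medians are 0.30, 0.17, -0.19 and 0.08, and 7, 2, 0 and 0 genes were called higher.

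What Dux did to these genes depends on the scale. In ES_Dux against ES_Empty 0 of the 43 were called higher and 0 lower by limma on scaled TPM, where 7.18% and 2.49% of all genes were called. At an unadjusted p under 0.05 the counts were 14 and 9, against 17.7% and 17.8% of all genes, and the median was 0.08 against -0.04 for all genes. As deposited, 40 of the 43 were called lower and 0 higher, where 44.4% and 4.12% of all genes were, with a median of -1.29 against -0.97 for all genes. With the scaling set by genes at 10 TPM or more, 2 were called lower, Gnl3 and Wdr43, and the medians of the 43 and of all genes were -0.30 and -0.31. The share of all genes called under that scaling is not given here. The summed level of the 43 genes was 2802 and 2778 scaled TPM in ES_Dux and 2511 and 2259 in ES_Empty, and 1215 and 1282 TPM as deposited in ES_Dux against 3297 and 2549 in ES_Empty.

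The roles had different medians in ES_Dux against ES_Empty, with wide ranges within a role. On scaled TPM the box C/D, box H/ACA and other nucleolar proteins had medians of 0.36, 0.29 and 0.30, the large subunit factors 0.14, the processome -0.07 and the late small subunit factors -0.28. Single genes ranged from -0.70 to 0.58 among large subunit factors, from -0.63 to 0.40 in the processome, from -0.40 to 0.09 among late small subunit factors, and from -0.04 to 0.53 over the first 3 roles. Differences between roles were not tested. Bop1 had 49.7 and 44.1 scaled TPM in ES_Dux, against 33.0 and 29.0 in ES_Empty (log2 fold change 0.58, SE 0.14, adjusted p = 0.0253). Npm1 had 702 and 720.0 scaled TPM in ES_Dux, against 539 and 447 in ES_Empty, above both controls (log2 fold change 0.53, SE 0.13, adjusted p = 0.0284), but as deposited Bop1 and Npm1 were at -0.82 and -0.91. Fbl (0.52, adjusted p = 0.00625) and Pes1 (0.37, adjusted p = 0.0181) lay on the same side on scaled TPM and below 0 as deposited (-0.88 and -1.03). Nob1 lay on the other, with 12.4 and 13.4 scaled TPM in ES_Dux, against 17.2 and 17.6 in ES_Empty (log2 fold change -0.40, SE 0.0907, adjusted p = 0.0189). The lowest of the set was Gnl3, nucleostemin, a GTPase of large subunit assembly known for its high level in stem cells, with 18.2 and 17.4 scaled TPM in ES_Dux, against 29.9 and 29.0 in ES_Empty (log2 fold change -0.70, SE 0.0833, adjusted p = 0.00145), and Wdr43 had 38.0 and 43.3 scaled TPM in ES_Dux, against 66.3 and 60.6 in ES_Empty (log2 fold change -0.63, SE 0.0927, adjusted p = 0.0035); Gnl3 and Wdr43 were described after their values were seen. Nop56 (0.36), Ncl (0.33), Nop10 (0.32), Dkc1 (0.32) and Heatr1 (0.06) had adjusted p above 0.05 on scaled TPM; as deposited each of these 5, and Pes1, was called lower (from -1.34 for Heatr1 to -1.03 for Pes1). Of 95 other pathway genes 3 were called higher and 1 lower (as deposited 0 and 80). Znhit3 had 63.6 and 76.4 scaled TPM in ES_Dux, against 16.8 and 22.5 in ES_Empty (log2 fold change 1.79, adjusted p = 0.000573) and Exosc1, of the exosome that trims RNA ends, had 1.21 and 1.39 scaled TPM in ES_Dux, against 5.20 and 4.89 in ES_Empty (log2 fold change -1.40, adjusted p = 0.00404). Myc (-0.91), Mycn (-0.87), Polr1b (-0.61), Ubtf (-0.05) and Polr1a (-0.01) were not called.

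Set against each other, ES_Obox3 and ES_Dux differed in 7 genes, 5 of which act in making the small subunit (Wdr43, Imp3, Utp4, Bysl and Tsr1). Of the 43 genes, 16 are processome proteins and 5 late small subunit factors, and the share by role was not tested. In ES_Obox3 against ES_Dux 7 of the 43 were called higher and 0 lower, where 9.8% and 8.56% of all genes were. At an unadjusted p under 0.05, 22 of the 43 were higher and 6 of the 43 lower, against 23.2% and 21.3% of all genes. Wdr43 had 128 and 129 scaled TPM in ES_Obox3, against 38.0 and 43.3 in ES_Dux, a 3.12-fold difference with no overlap (log2 fold change 1.64, SE 0.0927, adjusted p = 2.61e-05, limma). Imp3 had 51.1 and 41.4 scaled TPM in ES_Obox3, against 20.8 and 10.8 in ES_Dux and Nle1 had 16.6 and 18.1 against 5.04 and 5.97, at log2 fold changes of 1.55 and 1.5 (adjusted p = 0.00342 and 7.81e-05). The 2 ES_Dux libraries were far apart for Imp3 and still below both ES_Obox3 libraries. Utp4 had 55.0 and 52.5 scaled TPM in ES_Obox3, against 25.4 and 16.0 in ES_Dux (log2 fold change 1.37, SE 0.19, adjusted p = 0.00136), and Nolc1 had 245 and 276 against 113 and 109 (log2 fold change 1.22, SE 0.11, adjusted p = 0.000162). The remaining 2 act in late small subunit maturation. Bysl had 41.3 and 39.5 scaled TPM in ES_Obox3, against 20.6 and 18.4 in ES_Dux (log2 fold change 1.01, SE 0.0945, adjusted p = 0.000219) and Tsr1 had 50.8 and 49.7 scaled TPM in ES_Obox3, against 22.6 and 26.7 in ES_Dux (log2 fold change 1.00, SE 0.0949, adjusted p = 0.000231). Bysl was not called without the unnumbered ES_Dux library (0.93) or library 1 of ES_Obox3 (0.99), and Tsr1 without library 1 of ES_Dux (0.87) or of ES_Obox3 (0.99). As deposited 22 of the 43 were called higher, these 7 among them, where 20.3% of all genes were called higher and 3.42% lower. With scaling on genes at 10 TPM or more 11 were called higher. Under that scaling the median of all genes was 0.24, and the share of all genes called is not given here. Nob1 had 25.4 and 25.4 scaled TPM in ES_Obox3, against 12.4 and 13.4 in ES_Dux and just missed the fold threshold (log2 fold change 0.92, SE 0.0907, adjusted p = 0.000278). Ncl had 294 and 262 scaled TPM in ES_Obox3, against 362 and 381 in ES_Dux (log2 fold change -0.42, SE 0.13, adjusted p = 0.044). Bop1 (-0.41), Nop10 (-0.40), Dkc1 (-0.28), Npm1 (-0.23), Nop56 (-0.15), Pes1 (-0.08), Fbl (0.09) and Heatr1 (0.21) had adjusted p above 0.05. Of these 10 representatives all lie above 0 as deposited. Among 95 other pathway genes 6 were called higher and 2 lower (as deposited 36 and 0), with Nat10, an acetyltransferase of ribosomal RNA, at 1.80 and Exosc2 of the exosome at -1.44. Polr1b was called higher (log2 fold change 1.42, adjusted p = 0.000257) and Myc lower (log2 fold change -1.19, adjusted p = 0.00383) on scaled TPM, while Ubtf (0.50), Mycn (0.11) and Polr1a (0.03) were not called.

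In the 9 single ES cell libraries, which carried Obox1, Obox2, Obox4ps27, Obox4ps35, Obox7, Obox8 or 1 of 3 Crxos constructs named Crxos1, Crxos2 and Crxos3, 0 of the 43 genes differed from the mean of ES_Empty by 1 or more on the log2 scale, on scaled or deposited TPM. Past that size upwards were 1.86% of all genes in the Obox1 library, 2.06% with Obox2, 2.2% with Obox4ps27, 2.36% with Obox4ps35, 4.34% with Obox7, 4.2% with Obox8, 2.19% with Crxos1, 2.65% with Crxos2 and 5.35% with Crxos3. Downwards the shares were 2.98% in the Obox1 library, 2.33% with Obox2, 2.72% with Obox4ps27, 3.21% with Obox4ps35, 1.93% with Obox7, 2.73% with Obox8, 1.91% with Crxos1, 1.99% with Crxos2 and 1.25% with Crxos3. These libraries have no replicate, so no test was made. The largest difference upwards was Nle1 in the Obox8 library (0.88) and the largest downwards Imp3 in the Obox7 library (-0.64). Medians of the 43 genes lay between -0.17 and 0.08.

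Cloned embryos with EGFP mRNA had lower levels of many of the genes than fertilised embryos. In SCNT_EGFP_L2C against ICSI_L2C 13 of the 43 (30.2%) were called lower and 0 higher, where 7.86% and 6.91% of the 18252 genes tested were, and 32 and 2 had an unadjusted p under 0.05, where 19.3% and 18.4% of all genes had one. The median was -0.63, against 0.04 for all genes. Both clone libraries were below both fertilised libraries for 32 genes, where 30.9% of all genes had that pattern, and above them for 5, where 33.6% had that one. The summed level of the 43 was 1904 and 2050.0 scaled TPM in SCNT_EGFP_L2C and 3278 and 3028 in ICSI_L2C. As deposited 17 were called lower and 0 higher, where 12.5% and 4.8% of all genes were, and these included the 13. With scaling on genes at 10 TPM or more 6 were called lower, and without library 1 of ICSI_L2C or library 1 of SCNT_EGFP_L2C 8 were. The shares of all genes called in these settings are not given here.

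Imp3 had 18.1 and 21.5 scaled TPM in SCNT_EGFP_L2C, against 109 and 78.4 in ICSI_L2C, the largest difference of the set. Both clone libraries were far below the fertilised ones, a 0.222-fold difference (log2 fold change -2.17, SE 0.18, adjusted p = 0.00318, limma). Rrs1, which helps to place a small ribosomal RNA in the large subunit, had 25.8 and 24.2 scaled TPM in SCNT_EGFP_L2C, against 118 and 84.8 in ICSI_L2C (log2 fold change -1.96, SE 0.25, adjusted p = 0.00619). Utp18 and Wdr36 belong to another module of the processome. Utp18 had 21.0 and 25.6 scaled TPM in SCNT_EGFP_L2C, against 66.0 and 59.7 in ICSI_L2C (log2 fold change -1.40, SE 0.14, adjusted p = 0.00409) and Wdr36 had 7.43 and 9.71 scaled TPM in SCNT_EGFP_L2C, against 25.9 and 20.0 in ICSI_L2C (log2 fold change -1.32, SE 0.19, adjusted p = 0.00897). Neither pair of groups overlapped. Nop2, a methyltransferase of large subunit RNA, had 45.9 and 55.6 scaled TPM in SCNT_EGFP_L2C, against 128 and 133 in ICSI_L2C (log2 fold change -1.35, SE 0.13, adjusted p = 0.00371). Utp3 had 75.8 and 77.7 scaled TPM in SCNT_EGFP_L2C, against 183 and 189 in ICSI_L2C, with close values within each group (log2 fold change -1.26, SE 0.10, adjusted p = 0.00299). Ltv1, a small subunit export factor, had 57.8 and 55.9 scaled TPM in SCNT_EGFP_L2C, against 128 and 119 in ICSI_L2C (log2 fold change -1.10, SE 0.14, adjusted p = 0.00608), and Imp4 had 5.14 and 3.96 scaled TPM in SCNT_EGFP_L2C, against 11.9 and 9.90 in ICSI_L2C (log2 fold change -1.10, SE 0.20, adjusted p = 0.0156). The other 5 called lower were Nhp2 (-1.09), Rrp9 (-1.08), Mphosph10 (-1.02), Rrp15 (-1.01) and Bop1 (-1.0). With Imp3, Imp4 and Mphosph10 the list holds all 3 proteins of the complex that joins U3 RNA to the precursor. Imp3, Rrs1, Utp18, Nop2, Utp3 and Ltv1 were called without each library in turn. Leaving out a library ended the call of Rrp15 (each of the 4), of Nhp2 and Mphosph10 (library 1 of either group), of Imp4 (library 1 of ICSI_L2C or either clone library), of Wdr36 (library 1 of SCNT_EGFP_L2C), of Rrp9 (library 1 of ICSI_L2C) and of Bop1 (library 2 of either group); the log2 fold changes stayed at -0.83 or below.

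**Figure D3:**
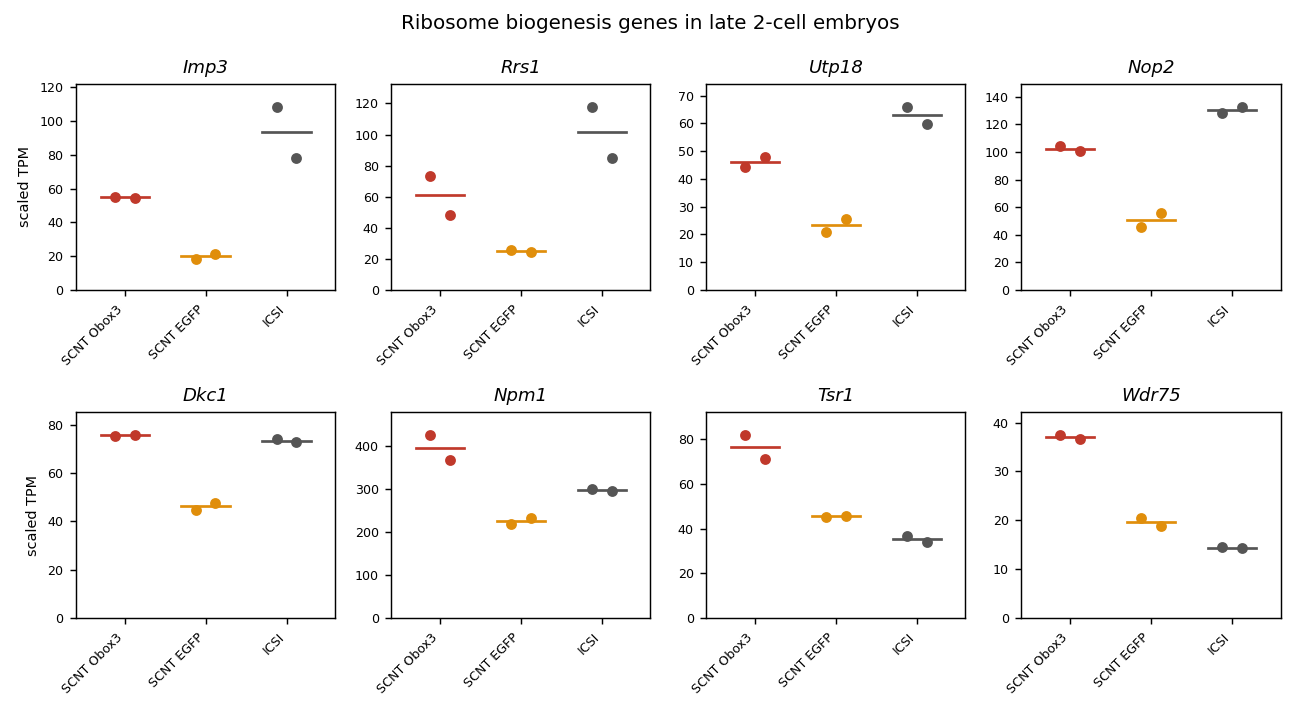
Levels of 8 ribosome biogenesis genes in late 2-cell embryos in scaled TPM (y axis, from 0) by group (x axis); points are the 2 libraries of a group and lines their mean. Imp3, Rrs1, Utp18 and Nop2 were lowest in SCNT_EGFP_L2C, while Tsr1, with 82.0 and 71.1 scaled TPM, and Wdr75, with 37.5 and 36.7, were highest in SCNT_Obox3_L2C.

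The difference was not shared by the whole set. Ncl had 154 and 144 scaled TPM in SCNT_EGFP_L2C, against 147 and 147 in ICSI_L2C and Nop10 had 11.1 and 15.6 scaled TPM in SCNT_EGFP_L2C, against 11.3 and 14.7 in ICSI_L2C, and the groups overlapped for both (0.02 and 0.03). Fbl had 14.7 and 16.0 scaled TPM in SCNT_EGFP_L2C, against 30.3 and 29.9 in ICSI_L2C and missed the fold threshold (log2 fold change -0.93, SE 0.15, adjusted p = 0.0108). Dkc1 had 44.9 and 47.7 scaled TPM in SCNT_EGFP_L2C, against 74.0 and 72.8 in ICSI_L2C (log2 fold change -0.66, SE 0.11, adjusted p = 0.0116), Heatr1 (-0.86) and Pes1 (-0.73) had adjusted p under 0.05, and Nob1 (-0.50), Npm1 (-0.40) and Nop56 (-0.33) did not. As deposited Fbl, Heatr1 and Pes1 were called lower. The 5 genes with both clone libraries above the fertilised ones were Tsr1, Wdr75, Utp14a, Gnl3 and Wdr12, and none of them was called. By role, 7 of 16 processome proteins, 4 of 11 large subunit factors, 1 of 4 box H/ACA proteins, 1 of 5 late small subunit factors, 0 of 4 other nucleolar proteins and 0 of 3 box C/D proteins were called lower. Of 96 other pathway genes 18 were called lower and 5 higher (as deposited 30 and 4), 10 of the 18 among large subunit factors and 4 in the RNA polymerase I machinery. Cd3eap, a subunit of RNA polymerase I, had 13.0 and 16.5 scaled TPM in SCNT_EGFP_L2C, against 131 and 126 in ICSI_L2C (log2 fold change -3.05, adjusted p = 0.0019), and Mycn had 9.46 and 4.25 scaled TPM in SCNT_EGFP_L2C, against 0.981 and 0.0981 in ICSI_L2C (log2 fold change 2.33, adjusted p = 0.0209). Ubtf (-0.93), Myc (-0.12), Polr1b (-0.01) and Polr1a (0.14) were not called. The summed late 2-cell markers given above were also lower in SCNT_EGFP_L2C than in ICSI_L2C, and the part of embryo stage or timing in these differences was not tested.

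With Obox3 mRNA every one of the 43 genes had a mean above that of EGFP clones, mostly by less than the fold threshold. In SCNT_Obox3_L2C against SCNT_EGFP_L2C all 43 log2 fold changes were above 0, where 45.8% of all genes were, and the median was 0.65 (a 1.57-fold level) against -0.05 for all genes. Both Obox3 libraries were above both EGFP libraries for 42 of the 43, where 25.9% of all genes had that pattern. On deposited TPM and with scaling on genes at 10 TPM or more the 43 were above 0 as well, with medians of 0.67 and 0.58. By the test 2 were called higher and 0 lower, where 1.05% and 0.164% of all genes were. An adjusted p under 0.05 was reached by 11, all higher, where 1.59% of all genes reached it and were higher. An unadjusted p under 0.05 was reached by 35, all higher, where 13.2% of all genes reached it and were higher. The summed level was 3336 and 3112 scaled TPM in SCNT_Obox3_L2C and 1904 and 2050.0 in SCNT_EGFP_L2C.

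Imp3 had 55.3 and 54.3 scaled TPM in SCNT_Obox3_L2C, against 18.1 and 21.5 in SCNT_EGFP_L2C (log2 fold change 1.43, SE 0.18, adjusted p = 0.0423, limma), and Nop2 had 104 and 101 scaled TPM in SCNT_Obox3_L2C, against 45.9 and 55.6 in SCNT_EGFP_L2C (log2 fold change 1.00, SE 0.13, adjusted p = 0.0423). Neither gene overlapped between the groups. Their calls were at the edge of the adjusted threshold: as deposited, where 0.11% and 0.0438% of all genes were called higher and lower, with scaling on genes at 10 TPM or more, without the filter on low values, and without any 1 of the 6 embryo libraries, 0 of the 43 were called, with log2 fold changes of 1.31 to 1.56 for Imp3 and 0.87 to 1.15 for Nop2 without 1 library. Rrs1 had 73.5 and 48.3 scaled TPM in SCNT_Obox3_L2C, against 25.8 and 24.2 in SCNT_EGFP_L2C, apart from the EGFP libraries and unequal between the Obox3 libraries (log2 fold change 1.22, SE 0.25, adjusted p = 0.0724). Npm1 had 425 and 366 scaled TPM in SCNT_Obox3_L2C, against 219 and 231 in SCNT_EGFP_L2C (log2 fold change 0.81, SE 0.12, adjusted p = 0.0481) and Dkc1 had 75.4 and 75.9 scaled TPM in SCNT_Obox3_L2C, against 44.9 and 47.7 in SCNT_EGFP_L2C (log2 fold change 0.70, SE 0.11, adjusted p = 0.0486). Bop1 had 38.9 and 33.1 scaled TPM in SCNT_Obox3_L2C, against 20.4 and 16.5 in SCNT_EGFP_L2C (log2 fold change 0.93, SE 0.15, adjusted p = 0.0529) and Nop10 had 22.0 and 29.4 scaled TPM in SCNT_Obox3_L2C, against 11.1 and 15.6 in SCNT_EGFP_L2C (log2 fold change 0.90, SE 0.24, adjusted p = 0.112). Heatr1 (0.72), Nop56 (0.62), Nob1 (0.61), Fbl (0.50), Ncl (0.50) and Pes1 (0.25) had adjusted p above 0.05 with both Obox3 libraries above both EGFP libraries. Imp4 had 5.29 and 4.61 scaled TPM in SCNT_Obox3_L2C, against 5.14 and 3.96 in SCNT_EGFP_L2C and was the gene whose groups overlapped. The medians by role were close, from 0.60 for large subunit factors to 0.73 for late small subunit factors. Of 96 other pathway genes 4 were called higher and 0 lower (as deposited 0 and 0), led by Znhit6, an assembly factor of box C/D particles, with 102 and 78.5 scaled TPM in SCNT_Obox3_L2C, against 24.4 and 32.0 in SCNT_EGFP_L2C (log2 fold change 1.64, adjusted p = 0.0416), and Cd3eap, with 54.0 and 40.5 scaled TPM in SCNT_Obox3_L2C, against 13.0 and 16.5 in SCNT_EGFP_L2C (log2 fold change 1.61, adjusted p = 0.0416). Ubtf was called too, with 73.5 and 78.8 scaled TPM in SCNT_Obox3_L2C, against 36.4 and 36.2 in SCNT_EGFP_L2C (log2 fold change 1.05, adjusted p = 0.0423). Polr1b (0.39), Polr1a (0.36), Myc (-0.08) and Mycn (-1.12) were not called.

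Against fertilised embryos, Obox3 clones were mixed. In SCNT_Obox3_L2C against ICSI_L2C 2 of the 43 were called higher and 0 lower, where 4.15% and 3.65% of all genes were. At an unadjusted p under 0.05, 13 of the 43 were higher and 14 of the 43 lower, against 14.3% and 14.1% of all genes. The median was 0.11 against 0 for all genes. Both called genes were above the fertilised level. Wdr75, of the processome module that binds the nascent precursor, had 37.5 and 36.7 scaled TPM in SCNT_Obox3_L2C, against 14.6 and 14.3 in ICSI_L2C (log2 fold change 1.30, SE 0.12, adjusted p = 0.00738, limma). Tsr1, a late small subunit factor, had 82.0 and 71.1 scaled TPM in SCNT_Obox3_L2C, against 36.9 and 34.1 in ICSI_L2C (log2 fold change 1.08, SE 0.12, adjusted p = 0.0101). Tsr1 lost its call as deposited (0.81) and without library 1 of ICSI_L2C or either Obox3 library, and Wdr75 without library 2 of SCNT_Obox3_L2C (1.32). As deposited 1 was called higher (Wdr75) and 3 lower (Imp3, Imp4 and Rrs1), where 2.8% and 6.31% of all genes were. Imp3 had 55.3 and 54.3 scaled TPM in SCNT_Obox3_L2C, against 109 and 78.4 in ICSI_L2C (log2 fold change -0.74, SE 0.18, adjusted p = 0.0578), and Imp4 had 5.29 and 4.61 scaled TPM in SCNT_Obox3_L2C, against 11.9 and 9.90 in ICSI_L2C (log2 fold change -1.0, SE 0.20, adjusted p = 0.0334), just short of the fold threshold. Both were below the fertilised libraries without overlap. Nop10 (0.93), Ncl (0.52), Npm1 (0.40), Nop56 (0.30), Nob1 (0.11), Dkc1 (0.04), Bop1 (-0.08), Heatr1 (-0.14), Fbl (-0.42) and Pes1 (-0.48) had adjusted p above 0.05. For Nop10, with 22.0 and 29.4 scaled TPM in SCNT_Obox3_L2C, against 11.3 and 14.7 in ICSI_L2C, both Obox3 libraries were above both fertilised ones. Of 96 other pathway genes 8 were called higher and 1 lower (as deposited 4 and 3). Mxi1, a repressor of the Myc network, had 5.97 and 5.95 scaled TPM in SCNT_Obox3_L2C, against 1.30 and 1.24 in ICSI_L2C (log2 fold change 1.61, adjusted p = 0.00938), and Nol6, a processome protein, had 27.2 and 26.4 scaled TPM in SCNT_Obox3_L2C, against 8.26 and 9.56 in ICSI_L2C (log2 fold change 1.49, adjusted p = 0.0125). Mycn (1.21), Polr1a (0.51), Polr1b (0.39), Ubtf (0.11) and Myc (-0.19) were not called. The 3 embryo comparisons share libraries in pairs, so their values are given side by side without a test between them.

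**Figure D4:**
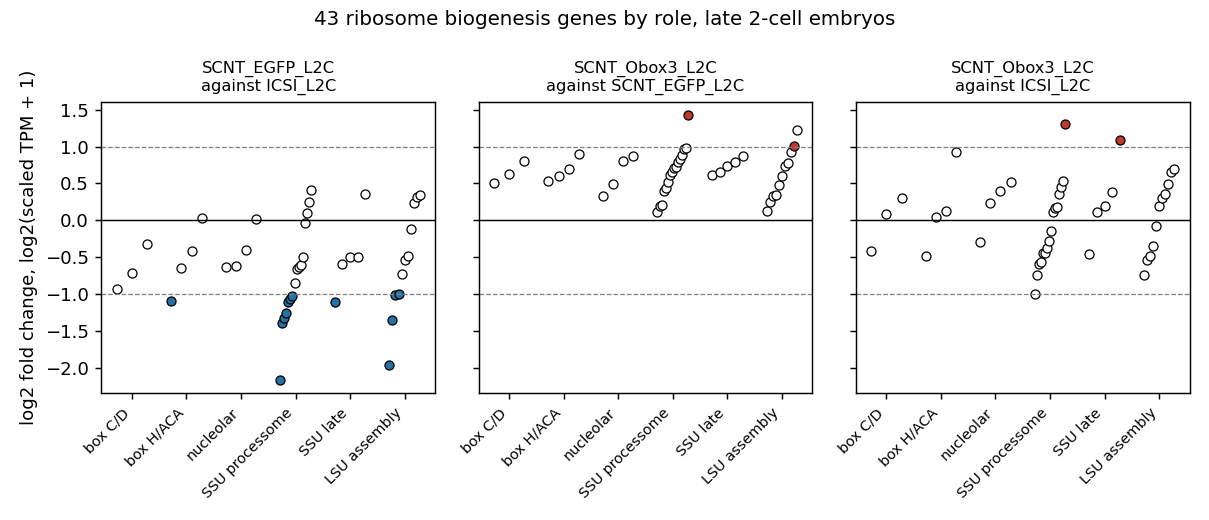
Log2 fold changes of the 43 genes (y axis, on the log2(scaled TPM + 1) scale) by role (x axis; SSU, small subunit; LSU, large subunit) in the 3 embryo comparisons; each point is a gene, red points were called higher, blue points lower, and dashed lines mark 1 and -1. The medians are -0.63, 0.65 and 0.11; in the middle panel all 43 points lie above 0.

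Ratios between the RNA levels of genes for partner proteins do not depend on the scaling of a library and were computed within each library. They are ratios of RNA, and protein was not measured. The pairs were chosen after values had been seen, not all pairs computed are given, and the ratios are a description. Imp3 to Imp4 was 7.59 and 5.54 in ES_Obox3, 5.21 and 4.94 in ES_Obox5, 2.22 and 1.72 in ES_Obox6, 2.82 and 1.28 in ES_Dux and 2.27 and 2.60 in ES_Empty, and 1.79 to 3.86 over the 9 single libraries. The ES_Obox3 and ES_Obox5 libraries were above every other ES library. In embryos the same ratio was 10.5 and 11.8 in SCNT_Obox3_L2C, 3.52 and 5.44 in SCNT_EGFP_L2C and 9.12 and 7.91 in ICSI_L2C. Imp3 to Mphosph10, the third protein of that complex, was 2.14 and 1.75 in ES_Obox3, 1.34 and 1.65 in ES_Obox5, 0.575 and 0.51 in ES_Obox6, 1.22 and 0.532 in ES_Dux and 0.562 and 0.627 in ES_Empty. In embryos it was 0.94 and 1.12 in SCNT_Obox3_L2C, 0.583 and 0.589 in SCNT_EGFP_L2C and 1.45 and 1.21 in ICSI_L2C. Obox3 clones were thus above fertilised embryos in the ratio to Imp4 and below them in the ratio to Mphosph10. Nolc1 to Tcof1, which encodes treacle, a nucleolar partner of Nolc1, was 1.97 and 2.10 in ES_Obox3, 2.08 and 1.90 in ES_Obox5, 1.27 and 1.11 in ES_Obox6, 0.909 and 0.944 in ES_Dux and 0.968 and 0.912 in ES_Empty. In embryos it was 5.02 and 4.55 in SCNT_Obox3_L2C, 3.08 and 3.51 in SCNT_EGFP_L2C and 3.24 and 3.37 in ICSI_L2C. The ES_Obox3 and ES_Obox5 values overlapped and were above every other ES library, and SCNT_Obox3_L2C was above both other embryo groups. Bop1 to Pes1, partners in large subunit assembly, was 0.871 and 0.791 in SCNT_Obox3_L2C, 0.556 and 0.465 in SCNT_EGFP_L2C and 0.556 and 0.70 in ICSI_L2C. Wdr43 to Wdr75 was 5.49 and 5.51 in SCNT_Obox3_L2C, 5.30 and 6.81 in SCNT_EGFP_L2C and 12.3 and 12.6 in ICSI_L2C. For that pair Obox3 clones lay within the range of EGFP clones and below fertilised embryos. Fbl to Nop56 was 0.376 and 0.378 in ES_Obox3, 0.307 and 0.333 in ES_Obox5, 0.158 and 0.210 in ES_Obox6, 0.345 and 0.294 in ES_Dux and 0.296 and 0.271 in ES_Empty. Both ES_Obox3 libraries were above every other ES library. Over the 9 single libraries the ratio was 0.164 to 0.334, so 1 of the 2 ES_Obox6 libraries lay within that range and the other just below it. In embryos Fbl to Nop56 was 0.157 and 0.206 in SCNT_Obox3_L2C, 0.186 and 0.200 in SCNT_EGFP_L2C and 0.283 and 0.319 in ICSI_L2C. Clones of both kinds were thus below fertilised embryos in Fbl RNA relative to Nop56 RNA.

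**Figure D5:**
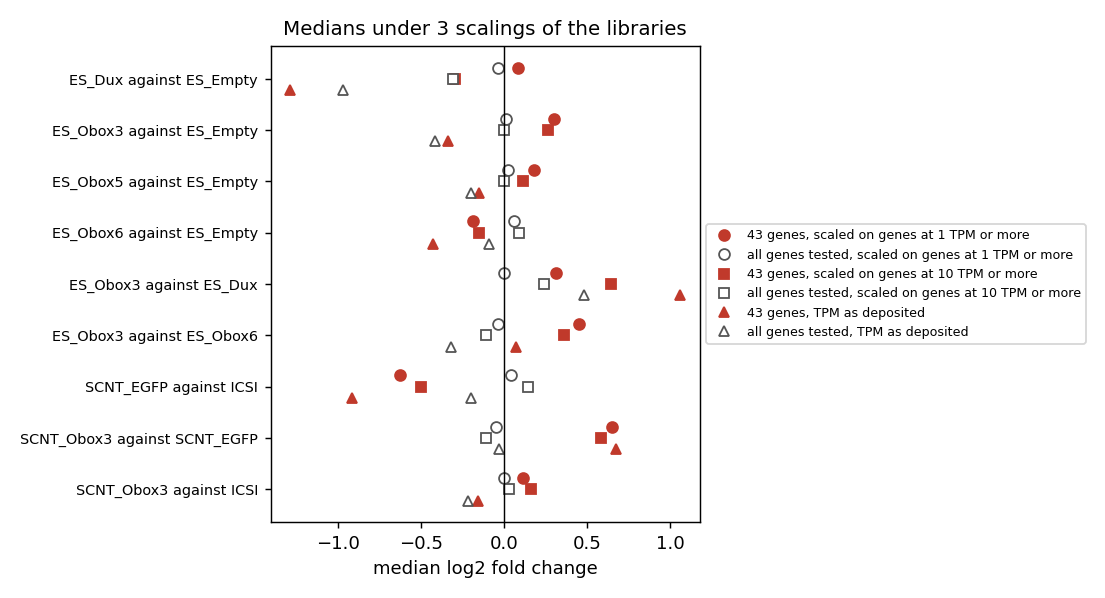
Median log2 fold change (x axis) of the 43 genes (filled) and of all genes tested (open) in each comparison (y axis) under 3 scalings of the libraries (circles, squares and triangles). In ES_Dux against ES_Empty the median of the 43 genes is 0.08, -0.30 and -1.29 under the 3, while in SCNT_Obox3_L2C against SCNT_EGFP_L2C it is 0.65, 0.58 and 0.67.

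In the plot of medians under 3 scalings, the median of all genes moved by more than 0.1 between scalings in every comparison except SCNT_Obox3_L2C against SCNT_EGFP_L2C. Relative to all genes, the median of the 43 was 0.70, 0.69 and 0.71 higher in that comparison with scaling on genes at 1 TPM, at 10 TPM and as deposited. In SCNT_EGFP_L2C against ICSI_L2C it was -0.66, -0.64 and -0.73 relative to all genes, in ES_Obox3 against ES_Empty 0.30, 0.26 and 0.09, and in ES_Obox3 against ES_Obox6 0.49, 0.47 and 0.39. In ES_Dux against ES_Empty it changed sign, at 0.12, 0.01 and -0.32. A library factor shifts all genes alike in log2 apart from the added 1, which weighs most on low genes. These relative medians therefore differ between scalings only through the added 1, and their change is not a trait of the 43 genes. In RefSeq 9 of the 43 genes overlap another protein-coding gene, most by a few bases, but 47.2% of the span of Tsr1 lies within Srr and 8.48% of that of Bop1 holds Scx. The spans of 7 of the genes hold 19 annotated small nucleolar RNA genes, 14 of them named in the tables. The strand setting of the counting is not given in the sources used here, so reads of such neighbours may be shared with Tsr1 and Bop1.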

How the data were processed

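Of the 88 samples of the series, 25 total RNA libraries (19 ES cell, 6 embryo; SMART-seq stranded kit per the labels) were used and 63 were not analysed here. The authors deposited TPM, a length-normalised share of each library's reads, for 55364 genes in 1 table per material. The submitters' processing notes name Trim Galore, HISAT2, featureCounts 1.6.5 and mm10; they name no annotation or strand setting. TPM keeps no total read depth: the value of 1 read on 1 kb, estimated from low values, was 0.136 to 0.441 TPM in ES cells and 0.0718 to 0.198 in embryos, and 48.2 to 58.9% of values came out whole within 0.001 reads, so no count test was run.

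TPM was divided by median-ratio size factors from genes at 1 TPM or more in every library (8969 in ES cells, 12203 in embryos). The log2(scaled TPM + 1) values were fitted with limma 3.58.1 (R 4.3.3, statmod 1.5.0, trend and robust variance), within each table, over genes at 1 TPM or more in at least 2 fitted libraries (20355 and 18252), with Benjamini-Hochberg adjustment over all of them. Groups of a table shared 1 estimate of spread, with 5 and 3 residual degrees of freedom. Labels give groups and, in general, replicate numbers; 3 ES cell columns, 1 each of ES_Dux, ES_Obox3 and ES_Obox5, carry a number that no label has and are called unnumbered. Nothing says that replicates came from separate cultures or collections, so p-values measure the spread between these libraries, which may be technical.

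The 43 genes, the roles and the other pathway lists were chosen with earlier results of these data known. Values are given in full for called genes (the 8 largest where more), for 10 fixed representatives, for Myc, Mycn, Ubtf, Polr1a and Polr1b and for the 2 called pathway genes with the largest change; others were named after their values were seen. The alternatives were deposited TPM, scaling on genes at 10 TPM or more, a pseudocount of 0.1, no filter, a replicate block and leaving out each library. The comparison of ES_Obox3 with ES_Obox6, and leaving out the 3 unnumbered libraries, were added after the data were seen. Promoters came from RefSeq (GRCm38.p6).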

Additional observations from a re-analysis of the deposited data

Results flagged for a closer look

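Obox3 and its control differed in opposite directions in ES cells and in cloned embryos for 5 of the 43 genes, with both Obox3 libraries below both controls in ES cells and above both controls in embryos. These are 11.6% of the 43, against 4.32% of the 14770 genes tested in both tables, and none of the 5 was called in either comparison. The reverse pattern, above both controls in ES cells and below both in embryos, was in 0 of the 43. That was fixed beforehand, since 0 of the 43 were below both EGFP libraries. Over all genes the reverse pattern was not rare. It was in 7.1% of the 14770 genes, so opposite directions as such were not particular to the 43. Rrs1 had a log2 fold change of -0.31 in ES_Obox3 against ES_Empty and 1.22 in SCNT_Obox3_L2C against SCNT_EGFP_L2C. Utp18 had -0.17 and 0.96, Ltv1 had -0.45 and 0.65, Mphosph10 had -0.20 and 0.65, and Gnl3 had -0.09 and 0.35 in the same 2 comparisons. The difference between the comparisons was not tested: the tables were normalised separately, and Obox3 came from a plasmid in ES cells and from injected mRNA in embryos.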

How the results depend on the processing

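Of 259 alternative values for 19 counts of called genes, 230 stayed within 1.5 times the main count and 29 did not. Most of the 19 main counts were 0, and values that stayed at 0 are among the 230. The 230 therefore say little about the counts above 0. Single genes were followed only where they were among the 10 fixed representatives or were called in the main fit, 126 results in all. Of 1786 alternative values for these, 1702 stayed on their side of the threshold, 72 lost the call, 6 gained one and 6 reversed. Representatives that were uncalled and stayed so are among the 1702, while all 72 losses fell on called genes. The 1702 therefore say little about how firm the calls are. Of the 1702, 83 were uncalled in both and had another sign, 36 of them as deposited. The cause was not tested for any of them. As deposited, without scaling, 40 genes were called lower in ES_Dux against ES_Empty, 0 higher and 1 lower in ES_Obox3 against ES_Empty, 0 higher in ES_Obox5 against ES_Empty, 22 higher in ES_Obox3 against ES_Dux, 3 higher in ES_Obox3 against ES_Obox6, 0 higher in SCNT_Obox3_L2C against SCNT_EGFP_L2C, and 1 higher and 3 lower in SCNT_Obox3_L2C against ICSI_L2C. The 6 reversed among the genes followed were all in ES_Dux against ES_Empty as deposited: Nop56 at -1.07, Dkc1 at -1.10, Nop10 at -1.06, Ncl at -1.11, Heatr1 at -1.34 and Pes1 at -1.03. Over all 43 in that comparison, 25 were above 0 on scaled TPM and 0 as deposited, so changes of sign were not limited to these 6. With scaling on genes at 10 TPM or more, 2 were lower in ES_Dux, 1 higher in ES_Obox5, 11 higher in ES_Obox3 against ES_Dux, 6 lower in SCNT_EGFP_L2C against ICSI_L2C and 0 higher in SCNT_Obox3_L2C against SCNT_EGFP_L2C. Without the filter the last count was 0 too, and with a pseudocount of 0.1 it was 2, while 1 gene was lower in SCNT_Obox3_L2C against ICSI_L2C. Leaving out 1 library at a time gave 5 to 7 higher in ES_Obox3, 1 to 2 in ES_Obox5, 6 to 7 in ES_Obox3 against ES_Dux and 5 to 6 in ES_Obox3 against ES_Obox6. In embryos it gave 8 to 13 lower in SCNT_EGFP_L2C against ICSI_L2C, 0 to 0 higher in SCNT_Obox3_L2C against SCNT_EGFP_L2C and 0 to 2 higher in SCNT_Obox3_L2C against ICSI_L2C. Shares of all genes called are given only for the main setting and deposited TPM, so counts in other settings stand without them. Deviations of same-numbered libraries were nearly uncorrelated (0.036 between ES_Obox6 and ES_Empty and 0.003, 0.045 and 0.058 between embryo groups). In ES cells no other pair of groups had the numbers for this check. It cannot show whether same-numbered libraries shared a culture or collection. With the replicate block 0 genes were called higher in SCNT_Obox3_L2C against SCNT_EGFP_L2C, 6 in ES_Obox3 against ES_Empty and 6 in ES_Obox3 against ES_Obox6. Of all genes called, 74.3% were higher in ES_Dux on scaled TPM and 8.49% as deposited; the 2 shares were 66.6 and 25.6% in ES_Obox3, 72.2 and 46.6% in ES_Obox5, 73.5 and 54.5% in ES_Obox6, 53.4 and 85.6% in ES_Obox3 against ES_Dux, 56.7 and 27.6% in ES_Obox3 against ES_Obox6, 46.8 and 27.7% in SCNT_EGFP_L2C against ICSI_L2C, 86.5 and 71.4% in SCNT_Obox3_L2C against SCNT_EGFP_L2C, and 53.2 and 30.7% in SCNT_Obox3_L2C against ICSI_L2C.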
